A study of Mus musculus with 6 samples.

Results

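RNase P RNA (Rpph1), RNase MRP RNA (Rmrp), the mouse vault RNA (Vaultrc5) and telomerase RNA (Terc) are stable noncoding RNAs that work inside protein complexes other than small nucleolar ribonucleoproteins. They were taken by name, 4 of the 23420 gene symbols in the count tables, and each had a read in all 6 libraries. The libraries hold small RNA of NIH 3T3 cells, a mouse fibroblast line, and every cell population, inputs included, had received the pEGFP-NXF3 plasmid, which encodes NXF3 fused to GFP. The 3 input libraries are RNA taken without antibody, and the 3 NXF3 pulldown libraries are RNA recovered with an anti-GFP antibody on protein A beads. No control precipitation without the bait and no added reference RNA was used here, so each value compares the make-up of recovered RNA with that of input RNA and not absolute amounts. Nothing in the labels gives age, strain or time after transfection, and the bait was made from a plasmid rather than from its own gene.

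RNase P and RNase MRP are related enzymes that share most of their protein subunits. RNase P trims the 5′ end of precursor tRNAs, and RNase MRP cuts precursor ribosomal RNA in the nucleolus. Vault RNA is a short RNA polymerase III transcript found partly in the vault particle, a large hollow cytoplasmic particle built from the major vault protein. Telomerase RNA carries the template from which telomere repeats are copied, and it ends in the same H/ACA domain, bound by dyskerin and its partners, as the box H/ACA small nucleolar RNAs (snoRNAs, the Snora rows of the tables). The proteins of the nuclear export factor family, to which NXF3 belongs, are best known from NXF1, the main exporter of mRNA.

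The sequences below are from transcript models of GENCODE M21 on GRCm38. Of their features, the repeat in Rpph1 and the overlaps with other genes bear on how reads could be counted. The stretches marked in Terc are those compared with the Snora transcripts below. The submitters' processing notes name another build, mm9, so these coordinates do not apply to the count tables. Rpph1 (chr14:50807449-50807767, minus strand, 319 nt) holds a tandem repeat of 21 nt, positions 182 to 202 and again 203 to 223. A read lying within 1 copy, so of at most 21 nt, would have 2 equally good placements, both within Rpph1. The first line gives 1 copy of that repeat in capitals and the second the last 51 nt of the RNA, positions 269 to 319.
Rpph1 repeat unit: GCGGATGCCTCCCTCGCCGGA
Rpph1 3′ end: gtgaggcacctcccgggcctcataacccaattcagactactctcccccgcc
Rmrp (chr4:43492788-43493058, minus strand, 271 nt) is shown whole, with the 124 nt that lie opposite an exon of Ccdc107 on the other strand in capitals.
Rmrp: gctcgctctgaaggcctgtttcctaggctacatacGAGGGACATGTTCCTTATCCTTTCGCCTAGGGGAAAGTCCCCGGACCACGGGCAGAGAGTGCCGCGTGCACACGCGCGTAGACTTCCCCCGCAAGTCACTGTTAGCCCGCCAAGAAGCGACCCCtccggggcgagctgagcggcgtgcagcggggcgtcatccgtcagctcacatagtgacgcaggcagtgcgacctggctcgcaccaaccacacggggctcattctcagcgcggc
Terc (chr3:96414437-96414859, minus strand, 423 nt) is shown at both ends of this model. RefSeq gives Terc 397 nt, so the printed ends are those of the GENCODE model and need not be those of the RNA. Capitals mark CTAACCCT, the complement of the telomere repeat within the template, in the first 120 nt, and the ACA box, 3 nt from the end, in the last 100 nt.
Terc 5′ end: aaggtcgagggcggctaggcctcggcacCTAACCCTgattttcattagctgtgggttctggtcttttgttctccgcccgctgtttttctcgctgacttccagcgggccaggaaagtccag
Terc 3′ end: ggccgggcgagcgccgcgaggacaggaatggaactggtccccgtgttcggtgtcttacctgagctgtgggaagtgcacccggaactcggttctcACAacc

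The 4 RNAs were set beside the H/ACA snoRNAs by sequence. An ACA placed 3 nt from the 3′ end was found in Terc and in 29 of 36 Snora transcripts (80.6%), and in none of Rpph1, Rmrp and Vaultrc5. CTAACCCT occurred once in Terc and in 0 of the 36 Snora transcripts (sense strand searched). Rpph1, Rmrp and Terc were longer and richer in G and C than the Snora transcripts, with 67.1%, 64.2% and 67.1% GC against a Snora median of 47.7% (range 33.3% to 64.1%) and lengths of 319, 271 and 423 nt against a Snora median of 132 nt (range 121 to 196 nt). Vaultrc5 was closer to them, at 143 nt and 53.8% GC. These lengths are those of the GENCODE models. RefSeq gives 325 nt for Rpph1, 275 nt for Rmrp, 397 nt for Terc and 345 nt for Vaultrc5. Library products of 30 to 375 nt were cut from the gel, so reads need not come from the intact RNA; the part of this size cut in the levels was not tested.

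Reads of neighbouring genes were scarce. Ccdc107 had at most 2 reads in a library, and Ccnb1ip1, whose alternative 5′ exon covers positions 36 to 268 of Rpph1 on the same strand, had 0 in all 6. How reads that overlap 2 genes were counted is not given, so these counts cannot show whether an overlap took reads from Rpph1. Reads set aside as ambiguous were 0.197% (pulldown 1) to 0.427% (pulldown 2) of all reads listed for a library. Whether counting used strand is not stated in any source used, so antisense reads cannot be told apart at Rmrp. Of the Rpph1-like copies Rprl1, Rprl2 and Rprl3, the first 2 had no read and Rprl3 had 3 in all libraries together. How reads that match Rpph1 and a copy equally well were placed is not given.

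Gene counts per library ran from 769570 (pulldown 1) to 6946284 (pulldown 2), and a count of 0 allows up to 0.432 to 3.9 counts in 1000000 gene counts (CPM). TMM scaling factors, which adjust library sizes for differences in composition, ran from 0.607 in pulldown 2 to 1.94 in pulldown 1. Pulldown 1, the shallowest library, had the lowest correlations with the others on log2 CPM, at 0.883 to 0.905 against 0.926 to 0.952 for pairs of the others. All 10 fibroblast markers examined had reads (158.6 to 695.2 unscaled CPM in a library), while 0 of 5 epithelial, 1 of 5 leukocyte and 1 of 5 adipocyte markers had any, with at most 1 read in a library. The transcript of the bait gene, Nxf3, had 1601 to 6559 reads in every library. In bulk libraries, the number of cells holding an RNA and its amount per cell cannot be told apart.

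All 4 RNAs had lower mean levels in the NXF3 pulldown than in input, and none passed the test over the genes kept by a filter on low counts. The log2 folds of pulldown against input were -1.73 for Terc, -1.36 for Vaultrc5, -1.12 for Rpph1 and -0.43 for Rmrp, the first from a fit of 1901 genes and the others from the default fit of 1852. On the 1901 genes edgeR's quasi-likelihood test called 0 of 4 at an adjusted p of 0.05, against a background of 0.0526% of 1901 genes called lower and 0% called higher. DESeq2 and limma-voom also called 0 of 4. Over the 1852 genes of the default filter, DESeq2 called 1 lower and 1 higher, and limma-voom 1 lower and 0 higher. None passed with the Snora sum as library size either, where 0.158% of genes were called lower. At an unadjusted p under 0.05 edgeR, DESeq2 and limma-voom each gave 3 of 4 (Rpph1, Vaultrc5 and Terc), against 3.26%, 1.47% and 4.63% of the 1901 genes lower by the same tool. Rpph1 did not pass this unadjusted threshold with total-count scaling or with the Snora sum as library size in edgeR, which each gave 2 of 4, against 1.21% and 1.1% of genes lower. The median log2 fold of the 4 was -1.25, beside -0.0015 over all 1901 genes, of which 50.2% had a negative log2 fold. These are the genes with at least 50 counts in total, a filter used so that Terc could be tested. The members were chosen with earlier results of these data known, so their shared sign is a description.

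**Figure D1:**
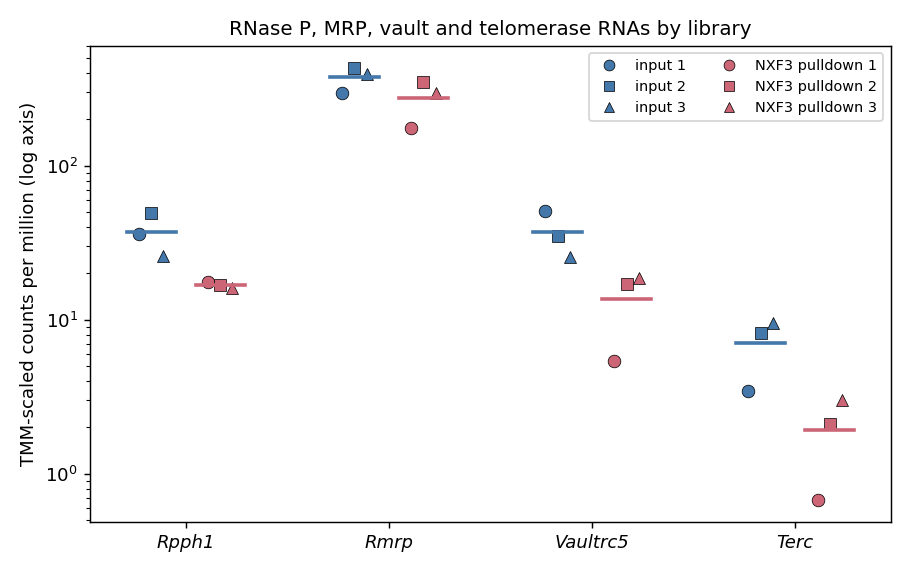
TMM-scaled CPM (log axis) of Rpph1, Rmrp, Vaultrc5 and Terc in each library, scaled over the genes with at least 50 counts in total. Symbols are libraries, blue for input and red for NXF3 pulldown, and horizontal lines are group means. For Rpph1, Vaultrc5 and Terc every pulldown point lies below every input point, and for Rmrp the groups overlap.

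Rpph1, the catalytic RNA of RNase P, had 104, 96 and 117 reads in the inputs (replicates 1, 2 and 3) and 26, 71 and 48 in the pulldowns. On the TMM-scaled CPM scale these were 36.3, 48.3 and 26.2 in input and 17.6, 16.9 and 15.9 in the pulldown. The pulldown values lay close together, all below the lowest input, with means of 36.9 ± 11 for input and 16.8 ± 0.841 for pulldown (SD, n = 3 each). EdgeR put the log2 fold at -1.12 with a standard error (SE) of 0.33 (95% interval -1.84 to -0.41), and the adjusted p was 0.523. As an unscaled share of gene counts, Rpph1 stood at 33.8 CPM in pulldown 1 (exact 95% interval 22.1 to 49.5), above inputs 1 and 3 (27.2 and 29.7), so the separation of the groups rested on the TMM factor of that library.

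Rmrp, the RNA of RNase MRP, was the most abundant of the 4 and the one whose groups overlapped. It had 858, 846 and 1772 reads in the inputs and 261, 1494 and 895 in the pulldowns. The scaled levels were 299.1, 425.4 and 397.2 CPM in input and 176.9, 355.8 and 297.4 CPM in the pulldown. Pulldown 2 lay within the input range, pulldown 3 just under it and pulldown 1 well under it. EdgeR put the log2 fold at -0.43 with an SE of 0.48 (95% interval -1.46 to 0.59), within the spread between libraries, and the adjusted p was 0.97. It was -0.18 without pulldown 1 and -0.68 without pulldown 2.

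Vaultrc5, the vault RNA, had 147, 68 and 114 reads in the inputs and 8, 73 and 56 in the pulldowns. Scaled levels were 51.2, 34.2 and 25.6 CPM in input and 5.42, 17.4 and 18.6 CPM in the pulldown. The lowest input and the highest pulldown library did not overlap, and the low pulldown 1 value rests on 8 reads. EdgeR put the log2 fold at -1.36 with an SE of 0.42 (95% interval -2.27 to -0.45), and the adjusted p was 0.566. Vaultrc5 was the single member of the 4 whose groups were apart as an unscaled share of gene counts too, at 29.0 to 38.4 CPM in input and 10.4 to 17.1 in the pulldown.

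Terc, the telomerase RNA, was the least abundant, with 10, 16 and 43 reads in the inputs and 1, 9 and 9 in the pulldowns. These gave 3.47, 8.22 and 9.6 CPM in input and 0.676, 2.12 and 3 CPM in the pulldown. Each pulldown library was below each input library after scaling, although input 1 and pulldown 3 differed little. As unscaled shares these stood at 2.61 CPM (exact 95% interval 1.25 to 4.8) in input 1 and 2.75 (1.26 to 5.21) in pulldown 3. EdgeR put the log2 fold at -1.73 with an SE of 0.46 (95% interval -2.73 to -0.73), and the adjusted p was 0.393. Terc lies below the default filter on low counts. With all 12025 genes that had any read it passed (adjusted p = 0.0358, edgeR), where 0.0748% of genes were called lower.

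After TMM scaling, 3 of the 4 RNAs (Rpph1, Vaultrc5 and Terc) had every pulldown library below every input library, as did 6% of the 1901 genes. As unscaled shares of gene counts this separation held for 1 of the 4, Vaultrc5, with a background of 2%. By the size of the log2 fold, Terc ranked 9, Vaultrc5 18, Rpph1 26 and Rmrp 282 from the lowest of the 1901.

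**Figure D2:**
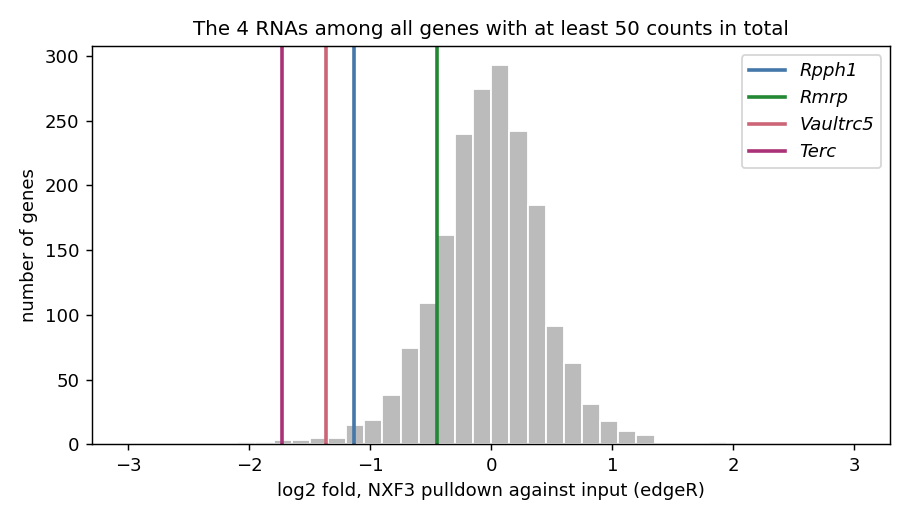
Histogram of log2 folds of NXF3 pulldown against input (edgeR, x axis) for the 1901 genes with at least 50 counts in total, with the number of genes on the y axis. Vertical lines mark the 4 RNAs. Terc, Vaultrc5 and Rpph1 lie in the lower tail and Rmrp within the main body.

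The ratio of each RNA to the summed Snora rows compares it with H/ACA snoRNAs of the same library and needs no library size. That sum was led by Snora28 and Snora68, which together took 86.1% to 90.1% of it, and was 0.327% to 0.878% of gene counts. Per 1000 Snora reads, Rpph1 had 7.12, 9.62 and 4.28 reads in the inputs and 3.85, 2.21 and 4.48 in the pulldowns. Pulldown 3 was above input 3, so the groups overlapped. The log2 ratio differed by -0.98 (exact two-sided permutation p = 0.2, adjusted over 5 ratios 0.333, n = 3 each, smallest possible p 0.1).

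Rmrp had 58.7, 84.8 and 64.9 reads per 1000 Snora reads in input and 38.6, 46.5 and 83.5 in the pulldown. Pulldown 3 stood near the top of the input range and the other 2 pulldowns below it. The log2 ratio differed by -0.37 (exact permutation p = 0.4, adjusted 0.4, n = 3 each), less than the SD of 0.58 between the pulldown libraries.

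Vaultrc5 had 10.1, 6.82 and 4.17 reads per 1000 Snora reads in input and 1.18, 2.27 and 5.22 in the pulldown, again with pulldown 3 above input 3. The log2 ratio differed by -1.45 (exact permutation p = 0.2, adjusted 0.333, n = 3 each). Terc had 0.684, 1.6 and 1.57 in input and 0.148, 0.28 and 0.84 in the pulldown, where pulldown 3 exceeded input 1. Its log2 ratio differed by -1.88 (exact permutation p = 0.2, adjusted 0.333, n = 3 each). The Terc difference depended on single libraries, at -2.56 without pulldown 3 and -1.31 without pulldown 1. Leaving out 1 library gave -1.3 to -0.68 for Rpph1, -0.69 to -0.14 for Rmrp and -2.01 to -0.94 for Vaultrc5.

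Against the Snora sum, then, the groups overlapped for each of the 4 RNAs, where 1.95% of the 1901 genes had every pulldown library below every input library. The 4 RNAs summed stood at 84.8 ± 15.7 reads per 1000 Snora reads for input against 63 ± 27.1 for pulldown (SD, n = 3 each), a log2 difference of -0.49 (exact permutation p = 0.3, adjusted 0.375). With the Snora sum as library size in edgeR, the log2 folds were -1.01 for Rpph1, -0.3 for Rmrp, -1.26 for Vaultrc5 and -1.62 for Terc (adjusted p = 0.999, 0.999, 0.999 and 0.848, edgeR), and the median of all genes moved to 0.13. The 23 Snora rows that passed the default filter had a median log2 fold of -0.04 under TMM, 13 negative and 10 positive, with 0 called. Their log2 folds ran from -1.08 to 0.78. The 3 most abundant were Snora28 with a log2 fold of -0.01, Snora68 with -0.04 and Snora43 with -1.08 (SE 0.7, adjusted p = 0.932, edgeR).

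**Figure D3:**
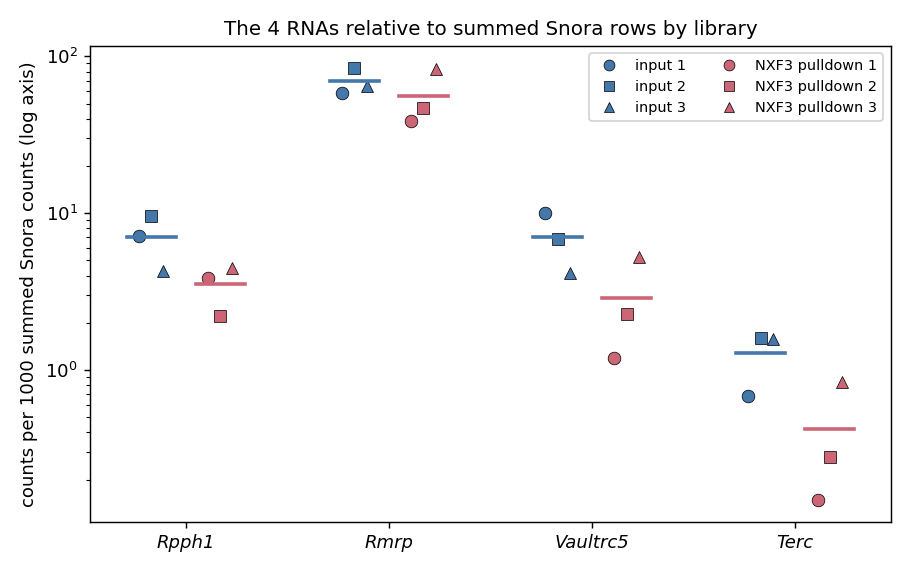
Reads of each of the 4 RNAs per 1000 reads of the summed Snora rows (log axis) in each library, blue for input and red for NXF3 pulldown, with group means as lines. Pulldown 3 (red triangles) lies within the input range for each of the 4.

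The log2 fold of each RNA kept its sign under every scaling, filter, tool, block and left-out library that was run. Rpph1 ran from -1.33 to -0.89, Rmrp from -0.68 to -0.18, Vaultrc5 from -1.6 to -1.02 and Terc from -2.04 to -1.35. In 54 of these 55 fits the adjusted p stayed above 0.05, the fit of Terc without a filter being the exception.

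**Figure D4:**
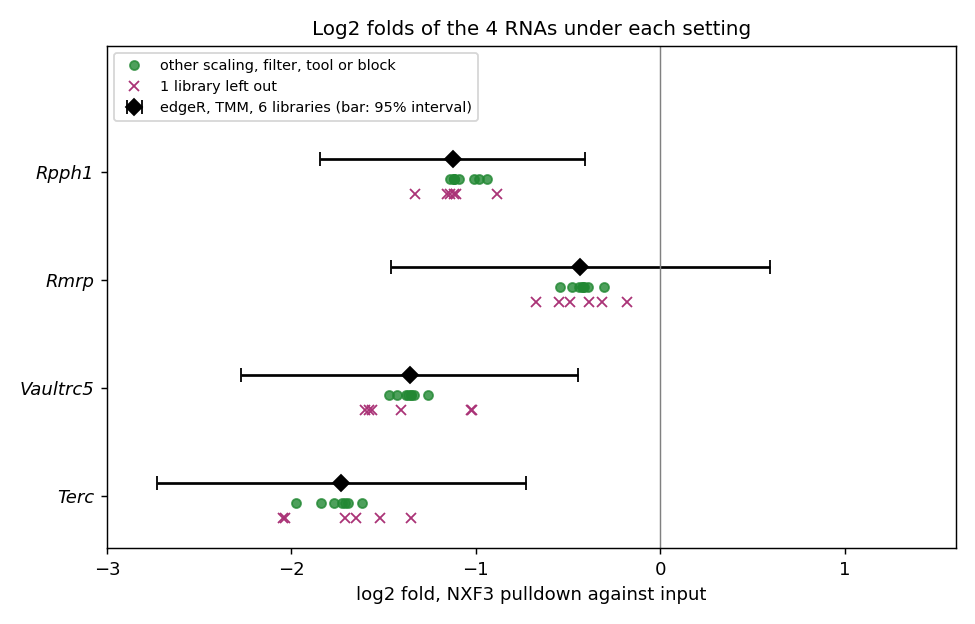
Log2 fold of NXF3 pulldown against input (x axis) for the 4 RNAs. Black diamonds with bars are the edgeR value and its 95% interval, green dots other scalings, filters, tools and the replicate block, and purple crosses the fits with 1 library left out. All points lie below 0, and the interval of Rmrp alone includes 0.

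Ratios between the RNAs of one library are free of any scaling, and 6 pairs were compared. Relative to Rmrp, both Vaultrc5 and Terc were lower in each pulldown than in any input. Vaultrc5 had 0.171, 0.0804 and 0.0643 reads per Rmrp read in the inputs and 0.0307, 0.0489 and 0.0626 in the pulldowns, with input 3 and pulldown 3 close together. The log2 difference was -1.08 (exact two-sided permutation p = 0.1, the smallest possible, adjusted over 6 pairs 0.3, n = 3 each). Terc had 0.0117, 0.0189 and 0.0243 reads per Rmrp read in input and 0.0038, 0.006 and 0.0101 in the pulldown, a log2 difference of -1.51 (exact permutation p = 0.1, adjusted 0.3, n = 3 each). Of the 1900 genes other than Rmrp, Vaultrc5 and Terc included, 0.842% were lower relative to Rmrp in the same way.

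The RNAs of the sister enzymes were not told apart at this spread. Rmrp had 8.25, 8.81 and 15.1 reads per Rpph1 read in the inputs and 10, 21 and 18.6 in the pulldowns. The groups overlapped, and the log2 difference was 0.61 (exact permutation p = 0.2, adjusted 0.4, n = 3 each). The remaining pairs had log2 differences of -0.9 (Terc to Rpph1), -0.47 (Vaultrc5 to Rpph1) and -0.43 (Terc to Vaultrc5), with exact permutation p = 0.5, 0.7 and 0.6 (adjusted 0.7 for each, n = 3 each). These 3 differences depended on single libraries. Leaving out pulldown 1 moved Terc to Rpph1 to -0.23 and turned Vaultrc5 to Rpph1 to 0.14. Terc to Vaultrc5 turned to 0.1 without input 3 and stood at -1.14 without input 1.

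Rmrp made up most of the reads of the 4 RNAs in every library, at 81.9% ± 4.99 for input against 89.2% ± 1.32 for pulldown (SD, n = 3 each). Rpph1 took 8.12% ± 2.08 and 5.95% ± 2.46, Vaultrc5 8.45% ± 4.1 and 4.23% ± 1.44, and Terc 1.52% ± 0.605 and 0.592% ± 0.28. Together the 4 held 237.1 to 544.6 unscaled CPM in a library.

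**Figure D5:**
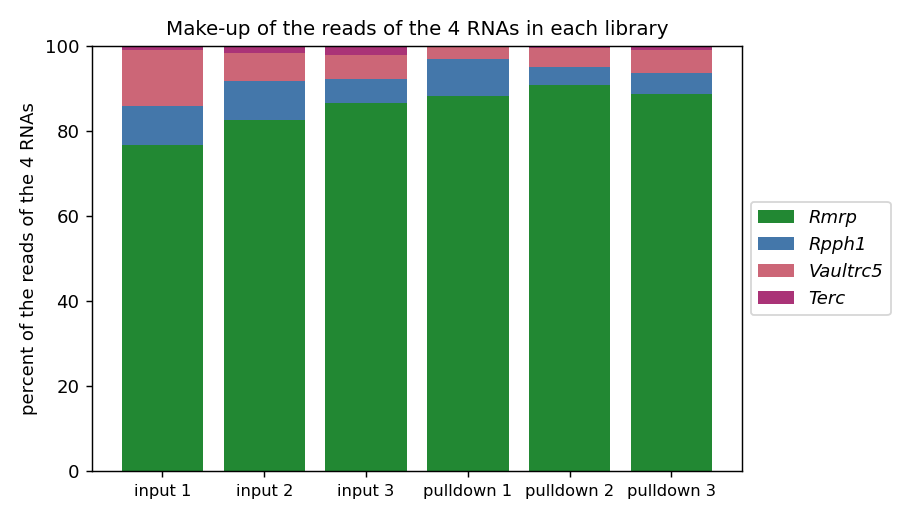
Percent of the reads of the 4 RNAs (y axis) that came from Rmrp, Rpph1, Vaultrc5 and Terc in each of the 6 libraries. The share of Rmrp is 76.7% to 86.6% in input and 88.2% to 90.7% in the pulldown.

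Per length, Rmrp stood highest and Terc lowest in both groups. TMM-scaled CPM per kb of the GENCODE model were 1387 ± 261 for Rmrp, 259.5 ± 90.1 for Vaultrc5, 116.5 ± 36.5 for Rpph1 and 16.8 ± 7.6 for Terc in input (SD, n = 3). In the pulldown they were 1016 ± 331, 96.1 ± 50.8, 52.5 ± 2.51 and 4.56 ± 2.77 in the same order. The ranges of Vaultrc5 and Rpph1 did not overlap in input (177.9 to 356.3 against 81.9 to 154.5), but in the pulldown they did. Their order also depended on the gene model, since RefSeq gives Vaultrc5 345 nt in place of 143 nt. With the RefSeq lengths Vaultrc5 stood at 107.5 ± 37.4 and Rpph1 at 114.3 ± 35.8 in input, well within the spread.

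mRNAs of the proteins that bind these RNAs left few fragments. None of the 11 RNase P and MRP protein genes in the tables (71 reads in all libraries together), of the 3 vault protein genes (45 reads) and of the 10 telomerase and H/ACA protein genes (154 reads, Tert at 0) passed the default filter on low counts. Of 5 genes for proteins that bind or modify RNA polymerase III transcripts, 4 were tested and 0 called. Nsun2, the methyltransferase that modifies vault RNA, had a log2 fold of 0.84 (SE 0.43), Srsf2 of -0.25 (SE 0.38), and Ssb, the La protein that binds the 3′ ends of such transcripts, of -0.06 (SE 0.36), each at an adjusted p of 0.831 or above by edgeR. These genes and the lists below were set beside the same default fit, in which 0.054% of 1852 genes were called lower.

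Among other stable RNAs, 10 of 18 listed symbols were in the tables, and only Rnu12, which encodes the U12 snRNA, had enough reads to test. It had 58, 86 and 147 reads in the inputs and 2, 41 and 28 in the pulldowns, and edgeR put its log2 fold at -2.09 with an SE of 0.46 (adjusted p = 0.157). Small Cajal body RNAs (Scarna rows) guide the modification of spliceosomal snRNAs. Of 9, 7 were tested, 0 called, 4 had positive and 3 negative log2 folds, and the median was 0.06. The abundant ones spread from -1.89 for Scarna13 (SE 0.47, adjusted p = 0.311, edgeR) to 0.94 for Scarna17 (SE 0.35, adjusted p = 0.826, edgeR).

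Across the 6 libraries the log2 CPM of the 4 RNAs correlated with each other at Pearson r of 0.53 (Rpph1 and Rmrp) to 0.89 (Rmrp and Terc). Of 375 candidates averaging 30 counts or more per library, those most like each RNA were Actb, Lgals1 and Lars2 for Rpph1 (r = 0.95, 0.91 and 0.90), and S100a6, Kcnq1ot1 and Plec for Rmrp (r = 0.97, 0.96 and 0.95). For Vaultrc5 they were Kitl, Snord88c and Rn45s (r = 0.98, 0.95 and 0.94), and for Terc Caprin1, Rnu12 and Grlf1 (r = 0.98, 0.96 and 0.95). Each r rests on 6 points that share library, depth and scaling factor and fall into 2 groups, and is given as a description.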

How the data were processed

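Small RNA libraries of transfected NIH 3T3 cells (3 input, 3 NXF3 pulldown; 14 PCR cycles, per the labels' protocols) were compared. The deposited tables, 1 per library, hold unnormalised counts of reads for each gene symbol. The submitters' processing notes name Bowtie, Partek and mm9, and per the file names and closing summary lines rRNA reads were removed and HTSeq-count was used. No source used gives versions, counting mode, strand or annotation. The 5 summary lines, 64.4% to 77.8% of a table, stayed out of library sizes and tests.

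The main test was edgeR 4.0.16 (R 4.3.3): TMM, filterByExpr (minimum count 10; 1852 genes), quasi-likelihood F test over all 6 libraries, Benjamini-Hochberg adjustment, threshold 0.05. Terc was tested in the same way on the 1901 genes with at least 50 counts in total. SE and 95% intervals come from the F statistic. Log2 CPM used a prior count of 2. Ratios were compared with exact two-sided permutation tests (SciPy 1.17.1). Exact Clopper-Pearson 95% intervals and limits for a count of 0 describe counting error alone, since PCR reads without molecular identifiers are not independent molecules. The scripts were tested on simulated data. DESeq2 1.42.0, limma-voom 3.58.1, other scalings and filters, a replicate block and left-out libraries were alternatives. The labels speak of independent experiments without further detail, so p-values measure the spread between these libraries. No library pair was identical. Named genes were the 4 RNAs, the 3 genes most like each, and from each related list up to 5 genes (3 Snora rows) with a mean of at least 10 counts, of which those that bear on the 4 RNAs are printed. Members and lists were chosen with earlier results of these data known. The labels give no day or run.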

Additional observations from a re-analysis of the deposited data

How the results depend on the processing

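Of 157 values of single folds and ratios under alternatives, 154 kept their direction and side of the threshold. The ratios among them could change in direction alone. The smallest possible p of their permutation tests is 0.1 with all 6 libraries, 0.2 with 1 left out and 0.25 with the replicate block. None could therefore pass 0.05. Of the 55 fold fits, which could change side, 54 kept both. Without a filter the log2 fold of Terc was -1.71 (adjusted p = 0.0358, edgeR; 0.036 to 1 over its alternatives); with a mean of at least 50 counts it could not be tested. Leaving out single libraries gave -0.82 to 0.14 for the log2 ratio difference of Vaultrc5 to Rpph1 and -1.14 to 0.097 for Terc to Vaultrc5. The count of lower genes (1 of 1852) became 0 with total-count scaling, 3 with the Snora sum as library size, 9 without a filter, 0 with a mean of at least 50 counts, and 0 to 5 with 1 library left out. The count of higher genes (0) became 2 with the Snora sum, 7 without a filter, 1 with a mean of at least 50 counts, 1 with DESeq2, and 0 to 6 with 1 library left out. With the replicate block 3 genes were lower and 1 higher, none of them among the 4 RNAs. Deviations of same-numbered libraries correlated at 0.0306, 0.0653 and 0.136. Each was highest with its own number, but the values were small, 2 of the 3 were under 0.1, and the labels name no shared batch or day, so the numbers were not taken as pairs. The block for ratios between the 4 RNAs was chosen after seeing the data. With 1 or 8 reads in a pulldown library, depth limits Terc and Vaultrc5.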
